A study of Mus musculus with 12 samples.

Results

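*Pdxdc1*, *Rpn1*, *Rabgap1l*, *Actl6a*, *Ranbp2*, *Lztfl1* and *Pisd-ps3* are 7 genes for which the probesets of 1 gene gave different answers to the same question, whether expression differed between PWD and B6 testicular cells. All probesets that the platform annotation assigned to exactly 1 of these genes were taken, 32 of the 34945 probesets that name a single gene, and the 7 genes are among 18194 genes so measured. The genes were chosen by their PWD minus B6 differences, because a probeset showed a large strain difference while a brighter probeset of the same gene did not, or differed the other way. These differences therefore describe the choice and carry no test. Changes between cell populations, averaged over both strains, did not enter the rule and were tested. They are not fully independent of the choice, because a probeset with a large strain difference in a population was bright there in 1 strain. A fall from that population can follow from the choice.

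RNA came from testes of male mice of 2 inbred strains, PWD/Ph (PWD), derived from wild *M. m. musculus*, and B6, mainly of *M. m. domesticus* origin. Neither strain carried an engineered allele or received an agent, and the mice were 8 to 10 weeks old according to the labels. Flow sorting isolated prepachytene spermatocytes, pachytene spermatocytes and spermatids, and RNA of each population of each strain was hybridized to 2 arrays, giving 6 groups and 12 arrays in all. By the paper's methods, the first sort also held early pachytene cells and the second diplotene cells, and no sort was pure. Prepachytene and pachytene are used here as names of these sorts. The labels number the arrays of a group but do not say whether they came from separate animals, so that p-values measure the spread between arrays, which may be technical.

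A probeset is a set of short probes on the array that together report 1 transcript or 1 stretch of it, so that probesets of a gene can read different exons, transcript ends or isoforms. The suffix of a probeset name tells how specific its probes were judged to be at design: _at probesets match a single transcript, _a_at several transcripts of 1 gene, _s_at transcripts of possibly different genes, and _x_at contain probes that may bind unrelated transcripts. Brightness depends on the probes as well as on the RNA, so that a brighter probeset is not more RNA, and only differences of a probeset between arrays are read here. Probe sequences and positions were not analysed here, and the part that strain sequence differences or transcript structure have in these values was not tested.

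Values are log2 expression, on which a difference of 1 is a doubling. Replicate arrays correlated with Pearson's r from 0.987 in PWD prepachytene cells to 0.996 in B6 pachytene cells across probesets, which are not independent replicates. A mean of 3.91 served as the background level, the 95th percentile of 56 probesets of genes of other organs, and 29 of the 32 probesets had a mean above it. The highest of the 56 had a mean of 9.00, so that fold bounds given below hold for the level of 3.91 only. The markers followed the labels between spermatocyte stages: all 13 measured prepachytene markers fell and all 11 pachytene markers rose from prepachytene to pachytene cells, and all 14 spermatid markers rose from pachytene cells to spermatids in limma. Markers of other cells were present in the prepachytene sort, since 7 of 10 spermatogonial, 8 of 12 Sertoli and 10 of 14 spermatid markers fell from prepachytene to pachytene cells. In this step 0, 1 and 2 of them rose, and 24.6% of all probesets fell. Toward spermatids 6 of 12 Sertoli markers rose and 0 fell, and 4 of 13 prepachytene markers rose and 5 fell, so that the spermatid sort has the same limit. By contrast, 0 of 5 Leydig markers and 2 of 11 peritubular and blood markers had a mean above the background level. Fewer cells of a type and less RNA per cell cannot be told apart in such bulk samples.

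**Figure D1:**
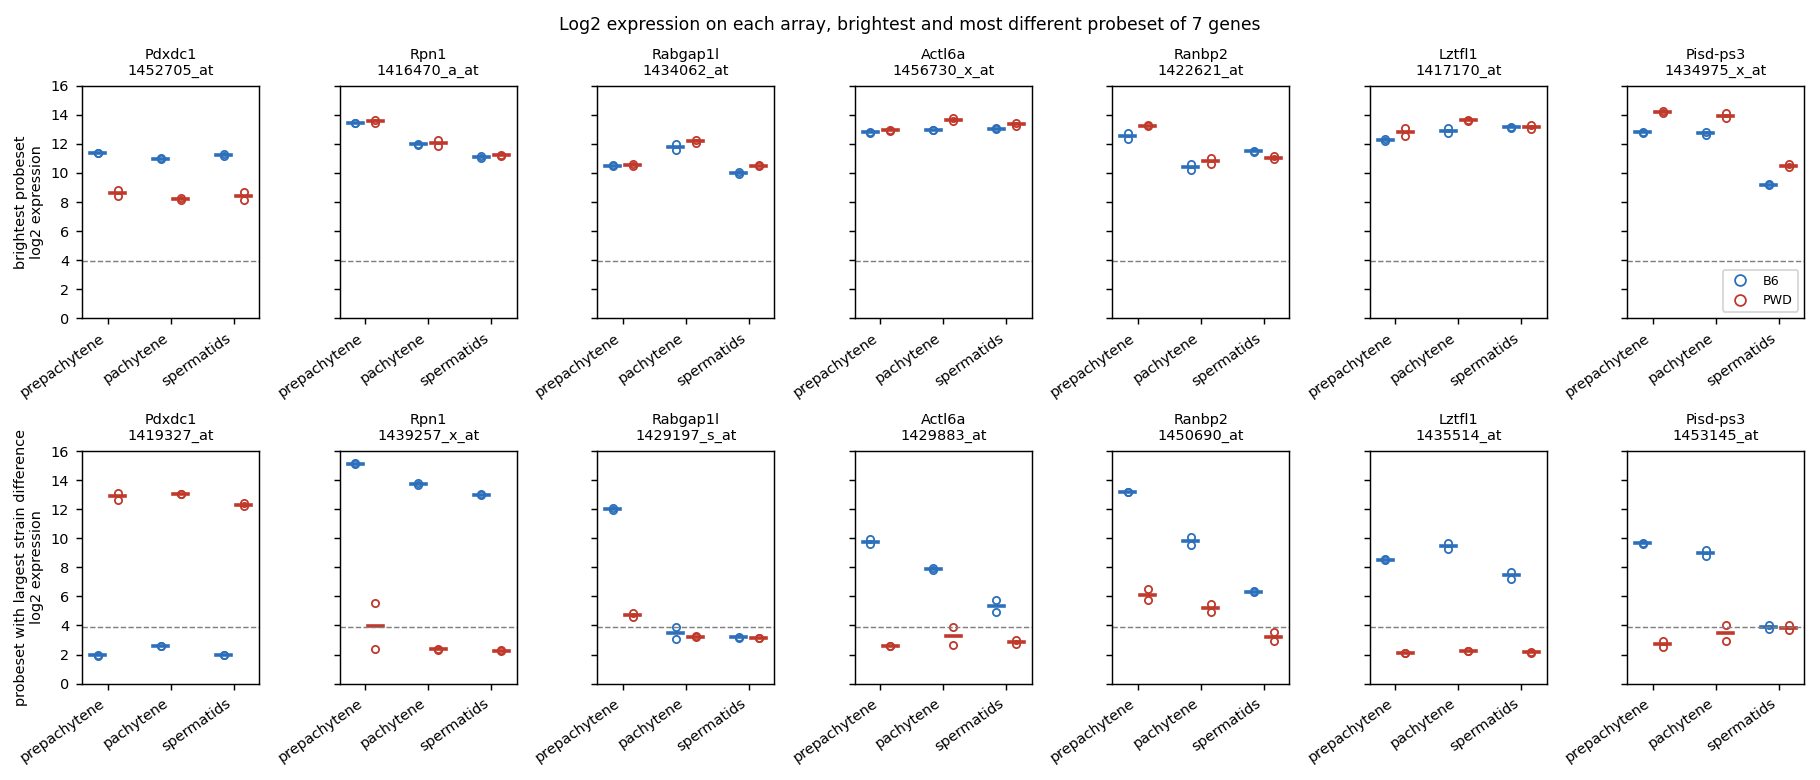
Log2 expression (y axis) on each of the 12 arrays, by population (x axis), for the brightest probeset of each gene (top) and for its probeset with the largest strain difference in size, averaged over populations (bottom). Circles are arrays, bars the mean of the 2 arrays of a group, blue B6 and red PWD, and a dashed line marks the background level (3.91). In the top row the strains lie close together except for *Pdxdc1* and *Pisd-ps3*, and in the bottom row they stand apart in prepachytene cells for every gene, with PWD higher for *Pdxdc1* only.

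*Pdxdc1*, on Chr 16, encodes a protein with a pyridoxal phosphate-dependent decarboxylase domain. Its probesets pointed in opposite directions. The probeset with the highest mean, 1452705_at, read 11.35 and 11.39 on the B6 and 8.82 and 8.41 on the PWD prepachytene arrays, 10.93 and 11.04 against 8.14 and 8.25 in pachytene cells, and 11.29 and 11.14 against 8.13 and 8.71 in spermatids. Thus every PWD array was below every B6 array, by 2.76, 2.79 and 2.79 on the log2 scale in the 3 populations. Probeset 1419327_at read 1.92 and 1.97 on the B6 and 12.65 and 13.12 on the PWD prepachytene arrays, 2.60 and 2.61 against 13.03 and 13.01 in pachytene cells, and 1.99 and 1.99 against 12.19 and 12.45 in spermatids. In B6 it was not above background on any array, and it was at least 503-fold, 552-fold and 340-fold higher in PWD when B6 was set to the background level. The remaining 2 probesets were dimmer and sided with the first. Probeset 1428200_a_at was lower in PWD by 1.91, 2.01 and 1.77 in prepachytene cells, pachytene cells and spermatids, expressed as differences of group means, although the 2 PWD spermatid arrays lay as far apart as 5.28 and 3.51. Probeset 1436372_a_at differed least, by -0.62, -1.20 and -1.07, and in prepachytene cells its PWD arrays, at 5.83 and 4.44, enclosed the B6 arrays at 5.77 and 5.75. As a result, the brightest *Pdxdc1* probeset was 1452705_at in B6 and 1419327_at in PWD, and the strain difference of the gene changed sign with the probeset chosen.

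*Rpn1*, on Chr 6, encodes ribophorin I, a subunit of the oligosaccharyltransferase that attaches sugar chains to proteins in the endoplasmic reticulum. It had 6 probesets, of which 2 were bright in both strains and 3 gave almost no signal in PWD. Probeset 1416470_a_at read 13.42 and 13.45 on the B6 and 13.47 and 13.65 on the PWD prepachytene arrays, 11.93 and 11.99 against 11.86 and 12.29 in pachytene cells, and 11.01 and 11.14 against 11.26 and 11.20 in spermatids. Strain differences of this probeset were 0.12, 0.11 and 0.15, and those of 1448353_x_at were 0.46, 0.49 and 0.27, with every PWD array above every B6 array of the same population. The contrast came from 3 _x_at probesets. Probeset 1439257_x_at read 15.08 and 15.14 on the B6 and 2.36 and 5.54 on the PWD prepachytene arrays, 13.82 and 13.69 against 2.34 and 2.39 in pachytene cells, and 13.07 and 12.94 against 2.24 and 2.30 in spermatids. Probeset 1456438_x_at read 15.06 and 15.07 in B6 and 3.32 and 5.89 in PWD prepachytene cells, 13.67 and 13.54 against 2.56 and 3.44 in pachytene cells, and 12.96 and 12.81 against 2.58 and 2.53 in spermatids. Probeset 1438943_x_at read 14.92 and 14.83 in B6 and 3.12 and 5.50 in PWD prepachytene cells, 13.23 and 13.25 against 2.94 and 3.19 in pachytene cells, and 12.58 and 12.58 against 3.10 and 2.46 in spermatids. These probesets were the brightest of the gene in B6 and were not above background on any PWD array other than prepachytene replicate 2, where all 3 stood more than 2 above replicate 1. In pachytene cells PWD was at least 919-fold, 827-fold and 643-fold lower for 1439257_x_at, 1456438_x_at and 1438943_x_at when PWD was set to the background level. The last probeset, 1459778_at, had a mean of 2.89, not above background.

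*Lztfl1*, on Chr 9, encodes a leucine zipper protein that regulates transport of the BBSome, a complex that carries membrane proteins in cilia. Its probesets ranged from nearly equal strains to a loss of signal in PWD. Probeset 1417170_at read 12.33 and 12.20 on the B6 and 13.07 and 12.57 on the PWD prepachytene arrays, 13.06 and 12.74 against 13.57 and 13.67 in pachytene cells, and 13.17 and 13.11 against 13.01 and 13.33 in spermatids. PWD was thus higher without overlap in both spermatocyte populations, by 0.55 and 0.72, and the arrays overlapped in spermatids. Probeset 1435514_at read 8.50 and 8.55 on the B6 and 2.10 and 2.12 on the PWD prepachytene arrays, 9.66 and 9.25 against 2.25 and 2.23 in pachytene cells, and 7.67 and 7.21 against 2.17 and 2.13 in spermatids. No PWD array was above background for this probeset, and B6 was at least 24.5-fold, 46.7-fold and 11.6-fold higher when PWD was set to the background level. Between these lay 1428974_s_at, lower in PWD by 2.23, 1.24 and 2.17, and 1460200_s_at, lower by 1.16, 1.32 and 1.41, expressed as differences of group means. Both were lower on every PWD array than on any B6 array of the same population. The dim 1431323_at, with a mean of 2.95, was above background in B6 prepachytene cells only, at 4.65 and 4.20.

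*Actl6a*, on Chr 3, encodes an actin-related subunit shared by the BAF, INO80 and TIP60 chromatin complexes, and *Ranbp2*, on Chr 10, a large nucleoporin of the cytoplasmic side of the nuclear pore with SUMO ligase activity. In both, 1 probeset stood far lower in PWD prepachytene cells than in B6. *Actl6a* 1456730_x_at read 12.84 and 12.73 on the B6 and 12.98 and 12.91 on the PWD prepachytene arrays, 12.97 and 12.92 against 13.54 and 13.75 in pachytene cells, and 13.07 and 13.04 against 13.23 and 13.45 in spermatids. PWD was slightly higher in each population without overlap, by 0.16, 0.70 and 0.28, and 1416569_at differed by 0.01, 0.74 and 0.12. By contrast, 1429883_at read 9.57 and 9.93 on the B6 and 2.59 and 2.56 on the PWD prepachytene arrays, 7.80 and 7.95 against 3.90 and 2.67 in pachytene cells, and 5.77 and 4.95 against 3.00 and 2.74 in spermatids. Its PWD arrays were all at or below background while its B6 arrays were lower in each later population. With PWD set to the background level, B6 was at least 57.4-fold, 15.7-fold and 2.73-fold higher in prepachytene cells, pachytene cells and spermatids.

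For *Ranbp2*, 1422621_at read 12.31 and 12.78 on the B6 and 13.20 and 13.30 on the PWD prepachytene arrays, 10.60 and 10.23 against 10.62 and 11.05 in pachytene cells, and 11.47 and 11.54 against 10.95 and 11.15 in spermatids. This probeset was higher in PWD in spermatocytes and lower in spermatids, with differences of 0.71, 0.42 and -0.45. Probeset 1450690_at, which was derived from the same source sequence, read 13.18 and 13.16 on the B6 and 6.49 and 5.72 on the PWD prepachytene arrays, 10.10 and 9.53 against 5.51 and 4.92 in pachytene cells, and 6.28 and 6.37 against 3.54 and 2.90 in spermatids. PWD arrays stayed above background in both spermatocyte populations but well below the B6 arrays, and the difference was -7.06, -4.60 and -3.11. The 2 dim probesets, 1440104_at and 1445883_at, had means of 5.33 and 4.73 and differed by 1.00 at most.

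*Rabgap1l*, on Chr 1, encodes a GTPase-activating protein with a TBC domain, a class that switches off Rab GTPases of membrane traffic. Its disagreement was found in prepachytene cells. Probeset 1434062_at read 10.45 and 10.53 on the B6 and 10.65 and 10.50 on the PWD prepachytene arrays, 11.96 and 11.59 against 12.08 and 12.29 in pachytene cells, and 10.03 and 9.91 against 10.45 and 10.54 in spermatids. The strains overlapped in prepachytene cells, and PWD was higher by 0.41 and 0.53 in the later populations. Probeset 1429197_s_at read 11.93 and 12.10 on the B6 but 4.58 and 4.84 on the PWD prepachytene arrays, a difference of -7.30, and was not above background in either strain in the later populations, where no array exceeded 3.90. Probeset 1429196_at, which was derived from the same source sequence, read 11.55 and 11.86 against 10.49 and 10.39 in prepachytene cells, a difference of only -1.27. It was dim later, with 4.57 and 4.16 on the B6 and 4.45 and 5.40 on the PWD pachytene arrays, which overlapped, and with 3.08 and 3.47 against 4.70 and 4.47 in spermatids, where PWD was the higher strain. Thus both probesets were bright in B6 prepachytene cells, and in PWD prepachytene cells 1 stayed bright and the other lay near background. Probeset 1453365_at was higher in PWD in all populations, by 1.77, 1.45 and 1.81, just under the difference of 2 used for counts below. The dimmest probeset, 1421488_at, read 4.04 and 4.76 on the B6 and 4.40 and 4.84 on the PWD prepachytene arrays, and no array exceeded 3.27 in the later populations. Its strains overlapped in all 3 populations.

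*Pisd-ps3* is a transcribed pseudogene related to *Pisd*, whose enzyme makes phosphatidylethanolamine in mitochondria, and its values are uncertain because its probesets may also bind RNA of related copies. Probeset 1434975_x_at read 12.82 and 12.77 on the B6 and 14.15 and 14.24 on the PWD prepachytene arrays, 12.82 and 12.63 against 13.77 and 14.12 in pachytene cells, and 9.16 and 9.22 against 10.37 and 10.58 in spermatids. It was higher in PWD on every array, by 1.40, 1.23 and 1.29, and 1439069_a_at likewise by 1.62, 1.16 and 1.31. Probeset 1453145_at went the other way, with 9.70 and 9.61 on the B6 and 2.95 and 2.55 on the PWD prepachytene arrays, 9.19 and 8.75 against 2.94 and 4.05 in pachytene cells, and 3.77 and 4.03 against 3.71 and 4.00 in spermatids. Its difference was -6.91 and -5.47 in spermatocytes and -0.05 in spermatids, where both strains were near background. Probeset 1453144_at ran opposite to it in prepachytene cells, with 3.01 and 3.06 in B6 and 9.99 and 9.08 in PWD, and the pachytene PWD arrays, at 4.43 and 6.71, lay far apart. These 2 probesets and 1429452_x_at were derived from 1 source sequence, yet PWD minus B6 averaged over populations was -4.14, 3.26 and 1.00.

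**Figure D2:**
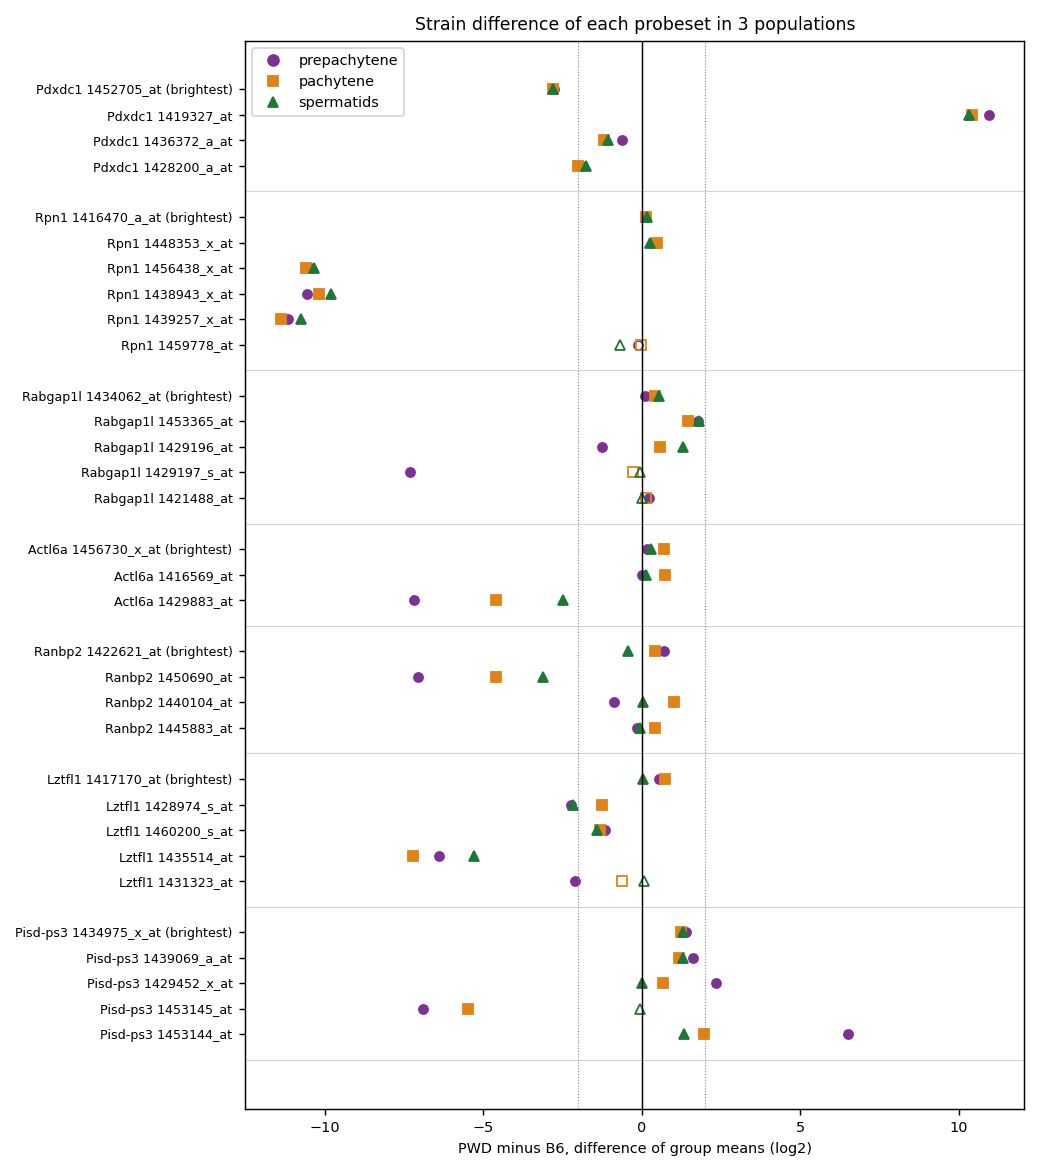
PWD minus B6 difference of group means on the log2 scale (x axis) for each of the 32 probesets (y axis, by gene, brightest first), with 2 arrays per group. Purple circles are prepachytene cells, orange squares pachytene cells and green triangles spermatids, open symbols have both strain means at or below the background level of 3.91, and dotted lines mark 2 and -2. Every gene has a point left of -2, and *Pdxdc1* and *Pisd-ps3* also have points right of 2.

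In prepachytene cells 11 of the 32 probesets were lower in PWD by 2 or more on the log2 scale and 3 were higher, and 12 differed by under 1. The corresponding numbers were 9, 1 and 15 in pachytene cells and 8, 1 and 15 in spermatids, and in pachytene cells 2 were higher without B6 or PWD replicate 1. Over all 45037 probesets, 1.91% were lower and 2.71% higher by 2 or more in prepachytene cells, 1.84% and 1.46% in pachytene cells, and 2.11% and 1.88% in spermatids. The members closest to the limit of 2 were at -2.11 and -1.91 and at 2.34 and 1.77 in prepachytene cells, at -2.01 and -1.32 and at 1.95 in pachytene cells, and at -2.17 and -1.77 and at 1.81 in spermatids. Lower values by 2 or more in all 3 populations were found for 7 probesets, and higher ones for 1, *Pdxdc1* 1419327_at. The brightest probeset differed by under 1 in all 3 populations for 5 of the 7 genes, with *Pdxdc1* and *Pisd-ps3* as the exceptions. Arrays of the strains did not overlap for 25 of 32 probesets in prepachytene cells, of which 14 were lower and 11 higher in PWD, for 13 and 14 in pachytene cells, and for 14 and 10 in spermatids. Among all probesets, arrays did not overlap for 21.9% with PWD lower and 26.1% with PWD higher in prepachytene cells, for 10.3% and 67.5% in pachytene cells, and for 53.8% and 17.8% in spermatids, so that with 2 arrays per strain this count says little. The share of all probesets called by limma at an adjusted p under 0.05 was 11.9% higher and 6.72% lower in PWD prepachytene cells, 8.64% and 4.19% in pachytene cells, and 6.36% and 5.52% in spermatids, and nothing is read from these comparisons because the genes were chosen for their strain differences.

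How common the pattern was over the array was counted by a fold rule. A gene counted when a probeset other than its brightest was above background in at least 1 strain and differed between strains by 2 or more, while the brightest differed by under 1 or in the opposite direction. Of 9009 genes with at least 2 probesets, 333 (3.7%) had such a probeset lower in PWD and 192 (2.13%) one higher in prepachytene cells. These shares were 1.73% and 0.91% in pachytene cells and 1.42% and 1.22% in spermatids. In all, 774 genes (8.59%) met the rule in at least 1 population and 52 in all 3. The 7 genes met it as the choice fixed, with 6 lower and 1 higher in prepachytene cells, 5 and 1 in pachytene cells, and 4 and 1 in spermatids.

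**Figure D3:**
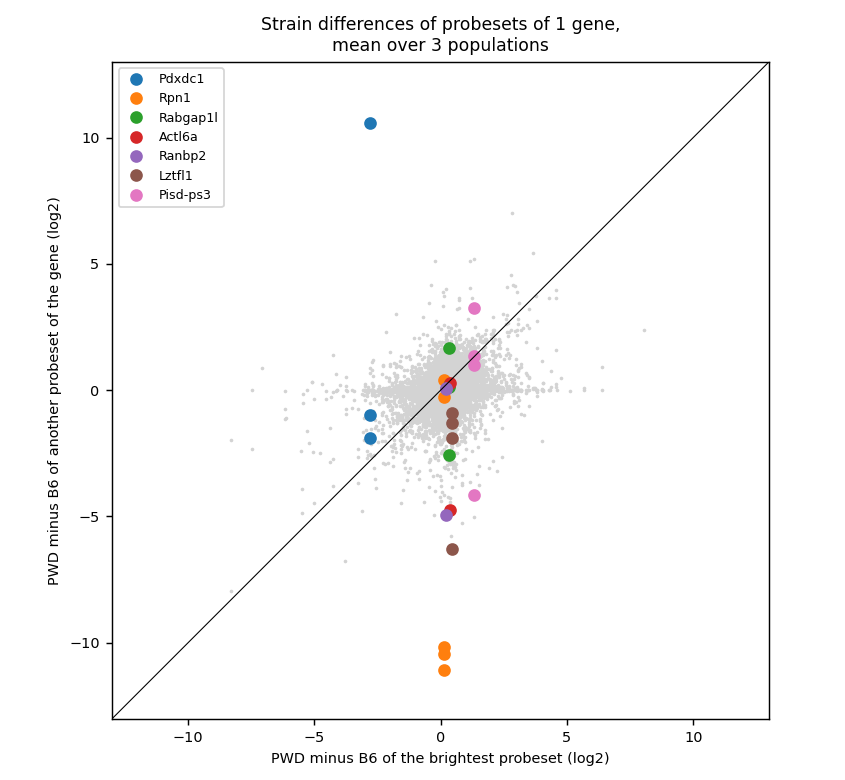
Strain difference of the brightest probeset of a gene (x axis) against that of each other probeset of the gene (y axis), both PWD minus B6 on the log2 scale and averaged over 3 populations. Grey points are the pairs of other genes, coloured points those of the 7 genes, and the line marks equal differences. The 7 genes were chosen for their distance from the line, and values below background enter as deposited, so that the largest distances, such as 10.56 for *Pdxdc1* 1419327_at, are no measured sizes.

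Features that the choice did not use were compared as counts. By suffix, 7 of the 32 probesets (21.9%) were _x_at, against 5.42% of all probesets, and 18 were _at, 4 _a_at and 3 _s_at. Of these, 3 of the 7 _x_at probesets did not reach a difference of 2 in any population. Over the array, the _x_at type made up 5.92% of the 878 probesets that met the fold rule and 7.59% of all probesets in pairs. A source sequence given by the annotation was shared by 4 of the 19 pairs with the brightest probeset for which both had one, and over the array by 23.6% of such pairs and by 23.2% of those that met the rule. In the 7 genes such pairs included 1 with a gap between strain differences of over 5, *Ranbp2* 1422621_at and 1450690_at (0.23 and -4.92), and *Rpn1* 1416470_a_at and 1448353_x_at, with small differences (0.13 and 0.41).

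Changes between populations were then tested with limma on all 12 arrays, averaging over both strains. From prepachytene to pachytene cells 11 of 32 probesets rose, 13 fell and 8 did not pass, where 44.3% of all probesets rose and 24.6% fell. From pachytene cells to spermatids 2 rose, 14 fell and 16 did not pass, where 12.1% of all rose and 18.4% fell. The median change over the members was -0.28 against 0.07 over all probesets in the first step and -0.62 against 0.00 in the second. Most members had a mean above background, and over all probesets above background the median was -0.12 and -0.23, closer to the members. Of these calls, 18 of 24 and 15 of 16 were kept without any 1 of the 12 arrays. Falls of probesets chosen through a population in which they were bright can follow from the choice. *Rabgap1l* 1429197_s_at, for example, showed the pattern in prepachytene cells only. An average over strains also mixes a change with background values where 1 strain gave no signal. Changes within each strain, as differences of group means with no test, are therefore given beside the averages below. In the first step 25 of the 32 probesets had a mean above background in both strains in at least 1 of the populations compared, of which 9 rose and 11 fell, and in the second 20 did, of which 1 rose and 10 fell. The shares of all probesets under this condition were not counted. These counts are therefore not comparable with the shares above, and nothing is read from them. Scaling matters for small changes: centring the arrays on probesets above background moved the median of all probesets from 0.07 to 0.53 in the first step and from 0.00 to 0.26 in the second, and with it 14 members rose and 10 fell in the first and 4 rose and 13 fell in the second. The shares of all probesets that rose and fell then became 67.8% and 19.9%, and 50.5% and 15.9%.

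The bright *Rpn1* probesets were lower in each later population. Averaged over strains, 1416470_a_at and 1448353_x_at fell by 1.48 ± 0.10 (SE; limma adjusted p = 5.11e-06) and 1.62 ± 0.10 (adjusted p = 2.41e-06) from prepachytene to pachytene cells, and again by 0.87 and 0.81 to spermatids. In B6 alone, the 3 _x_at probesets without signal on most PWD arrays changed by -1.46, -1.64 and -1.36 in the first step and by -0.72, -0.66 and -0.75 in the second, next to -1.47 and -0.88 for 1416470_a_at. The dim 1459778_at went the other way toward spermatids, where it rose by 0.66 ± 0.12 (adjusted p = 0.00367 in limma), although 1 array alone, a B6 spermatid array at 4.02, was above background.

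All 4 *Lztfl1* probesets with a mean above background rose from prepachytene to pachytene cells, 1417170_at by 0.72, 1428974_s_at by 0.91, 1460200_s_at by 0.71 and 1435514_at by 0.53 (adjusted p from 0.00201 to 0.0112 in limma). For 1435514_at, which had no signal in PWD, the change was 0.93 in B6. The dim 1431323_at fell by 0.53 ± 0.11 (adjusted p = 0.00411), and its change was -1.27 in B6 and 0.22 in PWD, where it stayed below background. In the second step 1417170_at changed by -0.11 (adjusted p = 0.731), whereas 1428974_s_at, 1460200_s_at and 1435514_at fell by 0.84, 1.62 and 1.05. The average of 1435514_at joins a change of -2.01 in B6 with one of -0.09 in PWD, where no array was above background.

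*Rabgap1l* probesets moved in opposite directions. Probeset 1434062_at rose by 1.45 ± 0.11 from prepachytene to pachytene cells (SE; limma adjusted p = 7.07e-06) and 1453365_at by 0.89 ± 0.15 (adjusted p = 0.00133). In the same step 1429196_at fell by 6.42 ± 0.23 (adjusted p = 1.19e-07), with changes of -7.34 in B6 and -5.51 in PWD. Probeset 1429197_s_at fell by 5.00 ± 0.18 on average (adjusted p = 1.24e-07), which joins a change of -8.52 in B6 with one of -1.49 in PWD, where it started near background. This fall can follow from the choice. The dim 1421488_at fell too (adjusted p = 0.00013 in limma), with changes of -1.46 in B6 and -1.55 in PWD. Toward spermatids 1434062_at fell by 1.75 ± 0.11 (adjusted p = 8.03e-06 in limma).

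The 2 bright *Ranbp2* probesets fell by 2.27 and 2.12 on average in the first step, but not alike within strains. Probeset 1422621_at changed by -2.13 in B6 and -2.41 in PWD, and 1450690_at by -3.36 in B6 and -0.89 in PWD. In the second step 1422621_at rose by 0.65 ± 0.15 (adjusted p = 0.0101) and 1450690_at fell by 2.74 ± 0.25 (adjusted p = 5.64e-05) in limma. For *Actl6a*, 1456730_x_at and 1416569_at rose by 0.43 and 0.61 into pachytene cells. The averages of 1429883_at, -0.58 ± 0.29 (adjusted p = 0.107 in limma) and then -1.47 ± 0.29 (adjusted p = 0.00476), combine changes of -1.87 and -2.52 in B6 with PWD values at or below background on every array.

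*Pisd-ps3* 1434975_x_at fell by 3.50 ± 0.10 from pachytene cells to spermatids (adjusted p = 5.75e-07 in limma) and 1439069_a_at by 1.85 ± 0.12 (adjusted p = 9.70e-06), with similar changes in both strains. Probeset 1453145_at fell by 2.35 ± 0.25 on average (adjusted p = 0.000143), but the fall was in B6, with a change of -5.07 against 0.36 in PWD, where the pachytene mean was below background. For *Pdxdc1*, 1452705_at fell by 0.40 ± 0.15 into pachytene cells (adjusted p = 0.0414 in limma), a call that was lost without single arrays and after either rescaling. Probeset 1419327_at rose by 0.40 ± 0.13 in this step (adjusted p = 0.0227), with a change of 0.66 in B6, where it was not above background on any array, and of 0.13 in PWD. Toward spermatids it fell by 0.65 ± 0.13 (adjusted p = 0.00409), with a change of -0.70 in PWD, and 1452705_at changed by 0.23 ± 0.15 (adjusted p = 0.381). Probeset 1436372_a_at rose by 1.28 ± 0.34 into pachytene cells (adjusted p = 0.0115).

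Whether probesets of a gene followed 1 another was tested within arrays, as the change of the difference between a probeset and the brightest of its gene, a value that centring an array leaves as it is. From prepachytene to pachytene cells 13 of 25 pairs changed in limma, where 60.1% of all 16751 pairs did, and from pachytene cells to spermatids 17 of 25, where 42% of all pairs did. Without any 1 array, 10 of the 13 and 15 of the 17 calls were kept. Where both probesets of a pair had a mean above background in both strains in at least 1 of the populations compared, 8 of 18 pairs changed in the first step and 9 of 13 in the second. The share of all pairs under this condition was not counted. These counts are therefore not comparable with 60.1% and 42%, and nothing is read from them. The median size of the change over the 25 pairs was 0.56 against 0.80 over all pairs in the first step, and 0.95 against 0.47 in the second. Relative to 1434062_at, *Rabgap1l* 1429196_at fell by 7.88 (95% interval -8.34 to -7.41, adjusted p = 3.37e-08 in limma) and 1421488_at fell by 2.96 (adjusted p = 6.96e-06) in the first step. Probeset 1429197_s_at fell by 6.45 relative to 1434062_at. It met the rule of the choice in prepachytene cells only, so that its fall can follow from the choice and is not read as a test. The *Ranbp2* pair, 1450690_at relative to 1422621_at, changed by -1.23 in B6 and 1.52 in PWD in the first step. These opposite changes averaged to 0.15 (95% interval -0.57 to 0.87, adjusted p = 0.711), which does not show that the probesets followed each other. In the second step the pair fell by 3.39 (95% interval -4.11 to -2.68, adjusted p = 5.15e-05 in limma), with changes of -4.58 in B6 and -2.21 in PWD. *Pdxdc1* 1419327_at rose by 0.80 relative to 1452705_at in the first step (adjusted p = 0.00712 in limma), a value that includes the B6 arrays on which it was not above background, and the pair change was 0.55 in PWD. After another quantile normalization this value was 0.44 and the call was lost. The 3 _x_at probesets of *Rpn1* could be set against 1416470_a_at in B6 only, where the pair changes were 0.01, -0.16 and 0.12 in the first step for 1456438_x_at, 1438943_x_at and 1439257_x_at.

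**Figure D4:**
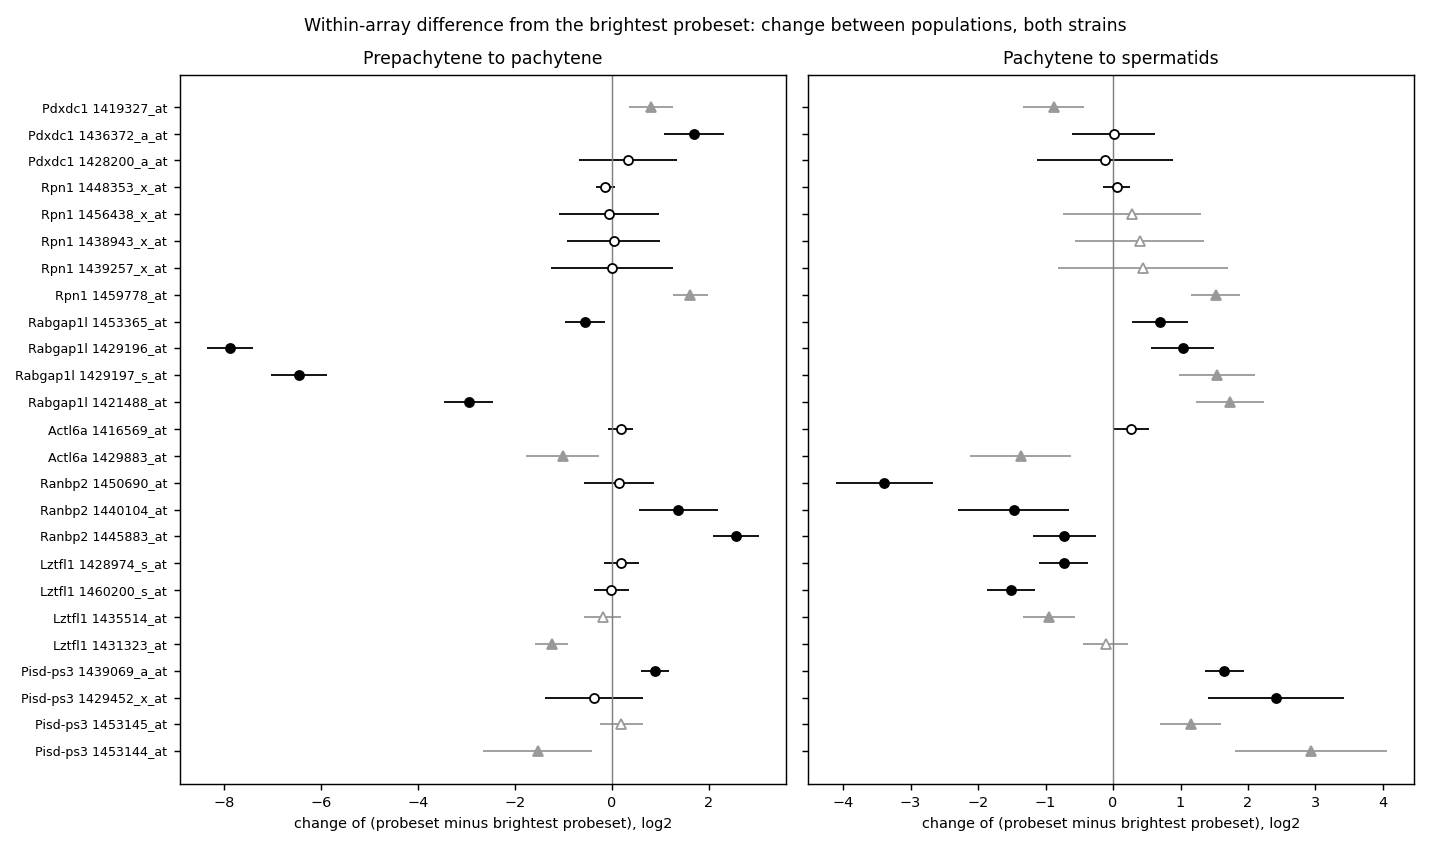
Change between populations of the within-array difference, probeset minus brightest probeset of the gene, on the log2 scale (x axis) for the 25 pairs (y axis), averaged over both strains, for the step from prepachytene to pachytene cells (left) and from pachytene cells to spermatids (right). Points are limma estimates with 95% intervals, filled where the adjusted p was under 0.05, and grey triangles mark pairs of which a probeset was above background in neither population of the step in at least 1 strain. *Rabgap1l* 1429196_at at -7.88 and 1429197_s_at at -6.45 stand far from 0 on the left, and *Ranbp2* 1450690_at at -3.39 on the right. The fall of 1429197_s_at can follow from the choice, because it met the rule in prepachytene cells only.

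Probesets of other genes most like those of the 7 genes over the 12 arrays were found by Pearson's r among 17518 probesets above background, as a description over arrays that share strain and population. The brightest probesets were most like *Trip13* (r = 0.998 with *Rpn1*), *Bub1b* (0.995 with *Pisd-ps3*), *Sbno1* (0.993 with *Rabgap1l*), *Mff* (0.991 with *Pdxdc1*), *Ubp1* (0.985 with *Ranbp2*), *Cops4* (0.977 with *Lztfl1*) and *Sdhaf2* (0.975 with *Actl6a*). The *Mff* probeset was lower in PWD by 6.17 averaged over populations. *Pdxdc1* 1452705_at was also lower in PWD, so that the strain difference enters this correlation too. For the probesets with the largest strain difference, which enters the correlation, the most similar probesets also differed between strains, and nothing is read from this because the choice fixed it. *Hook1* 1439173_at (r = 0.995 with *Lztfl1* 1435514_at) was lower in PWD by 4.00 averaged over populations, expressed as a difference of group means. The same measure fell by 5.43 in *Stk4* (r = 0.982 with *Rpn1* 1439257_x_at), by 4.39 in *Fam126b* (0.986 with *Actl6a* 1429883_at), fell by 3.76 in *Sfpq* (0.974 with *Ranbp2* 1450690_at), by 2.30 in *2700099C18Rik* (0.990 with *Pisd-ps3* 1453145_at) and by 1.17 in *2610524H06Rik* (0.992 with *Rabgap1l* 1429197_s_at). *Tmem87a* (r = 0.973 with *Pdxdc1* 1419327_at) was higher in PWD by 5.16.

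Genes of the complexes or families to which the members belong were read through their brightest probeset, 88 of 96 listed genes being measured. From prepachytene to pachytene cells 31 rose and 36 fell, and from pachytene cells to spermatids 15 rose and 45 fell in limma, where 44.3% and 24.6% of all probesets rose and fell in the first step and 12.1% and 18.4% in the second. Centring the arrays turned these splits to 45 and 24 and to 27 and 40, and another quantile normalization to 35 and 31 and to 18 and 40. In the oligosaccharyltransferase list, 8 of the 11 partners of *Rpn1* fell in the first step and 8 in the second, led by *Magt1* (-3.73) and *Ddost* (-2.40, adjusted p = 3.61e-06), which encode an oxidoreductase and a core subunit of the complex. The chromatin partners of *Actl6a* were split in the first step, with 9 of 23 higher and 10 lower, among them *Smarca2*, a BAF ATPase, at 5.43 and *Morf4l2* of the TIP60 complex at -4.26, and 16 fell in the second step. Of 13 partners of *Ranbp2*, 6 rose and 3 fell in the first step, and *Rangap1*, the SUMO-modified GTPase activator that binds it, rose by 2.81 toward spermatids (limma adjusted p = 8.90e-06).

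Among 11 BBSome and related genes listed beside *Lztfl1*, 5 rose and 3 fell in the first step and 3 rose and 7 fell in the second, with *Bbs5*, a BBSome subunit, at 3.19 and *Ttc8*, another subunit, at -2.96. Of 13 Rab GTPases and TBC domain relatives of *Rabgap1l*, 3 rose and 8 fell in the first step, with *Rab34* at -7.67 and *Evi5*, a TBC domain gene, at -4.89. Of 9 pyridoxal phosphate enzymes listed beside *Pdxdc1*, 2 rose and 2 fell in the first step and 3 rose in the second, with *Hdc*, histidine decarboxylase, at 3.20. Of 8 phospholipid genes listed beside *Pisd-ps3*, 4 rose and 2 fell in the first step, with *Selenoi*, an ethanolamine phosphotransferase, at 4.97 and *Cept1*, a choline and ethanolamine phosphotransferase, at -4.27, and 5 fell in the second. All population changes named for these genes passed in limma with an adjusted p of at most 0.000187.

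Between strains, 19 of the 88 partner genes were higher and 8 lower in PWD prepachytene cells, 20 and 2 in pachytene cells, and 13 and 4 in spermatids, where the called shares of all probesets were 11.9% and 6.72%, 8.64% and 4.19%, and 6.36% and 5.52%. By list, higher and lower calls in prepachytene cells, pachytene cells and spermatids were 2 and 1, 5 and 0, and 1 and 0 for oligosaccharyltransferase, 5 and 2, 2 and 0, and 2 and 1 for chromatin partners, and 4 and 0, 4 and 0, and 3 and 1 for the nuclear pore list. They were 3 and 2, 6 and 1, and 3 and 1 for BBSome genes, 3 and 2, 1 and 0, and 1 and 0 for Rab and TBC genes, and at most 3 in either direction for the 2 lists beside *Pdxdc1* and *Pisd-ps3*. These counts were not stable. They fell from 27 to 10 and 14 without B6 prepachytene replicate 1 or 2, from 22 to 13, 5 and 6 without B6 pachytene replicate 1 or 2 or PWD pachytene replicate 2, and from 17 to 9, 8 and 11 without B6 spermatid replicate 1 or 2 or PWD spermatid replicate 2. The prepachytene split of 19 and 8 became 18 and 13 after another quantile normalization and 13 and 21 after centring, and the pachytene split of 20 and 2 became 7 and 7 and 13 and 3. Centring moved the median PWD minus B6 difference of all probesets from -0.01 to -0.29 in prepachytene cells, from 0.06 to -0.13 in pachytene cells and from -0.03 to -0.14 in spermatids, and the called shares of 11.9% and 6.72% to 10.2% and 30.4% in the first.

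Of the 36 largest strain calls, up to 2 per list and population, 13 were kept without any 1 array and under both scalings. In prepachytene cells these were *Rab31* (2.33), *Rab34* (1.64), *Bbs4* (1.60), *Smarca2* (1.24) and *Kpnb1*, an importin (1.12), all higher in PWD, with adjusted p from 0.000307 to 0.00719 in limma. Markers of other cells differed in the same comparison, with 5 of 14 spermatid markers higher and 0 lower in PWD, and 4 of 12 Sertoli markers higher and 1 lower with their median at 6.56 and 6.13 on the B6 and 7.82 and 8.21 on the PWD arrays. Of 10 spermatogonial markers 3 were higher and 1 lower, with their median at 5.89 and 6.04 on the B6 and 6.80 and 7.72 on the PWD arrays. Of 11 pachytene markers 4 were higher and 2 lower, and of 13 prepachytene markers 0 were higher and 2 lower. The part of cell composition in these values was not tested. In pachytene cells *Bbs12* (2.11), the acetyltransferase gene *Kat5* (1.55) and *Pemt* (1.40), which methylates phosphatidylethanolamine, were higher. In these cells 5 of 13 prepachytene markers were higher and 0 lower in PWD, and their part was not tested. In spermatids *Ttc8* (3.47), *Bbs1* (3.17), *Pemt* (1.38) and *Kat5* (1.04) were higher and *Gadl1*, a decarboxylase gene, was lower (-4.54, adjusted p = 5.71e-07 in limma). In the same cells 4 of 14 spermatid markers were lower and 0 higher in PWD, 3 of 13 prepachytene and 3 of 12 Sertoli markers were higher and 0 lower, and the part of cell composition was not tested. Each of these genes was read through a single probeset.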

How the data were processed

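The table that the authors deposited holds log2 values of 45101 probesets on 12 arrays, made with GCRMA per the submitters' processing notes (version not given), whereas the study's methods name RMA, and besides this array type another one for the normalization. GCRMA corrects background by probe composition, which sets how low dim values lie, and normalizes quantiles, which can shift values where RNA content differs. Labelling started from 15 to 40 ng of RNA.

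The 45037 probesets that are no controls (64 are) were fitted with limma 3.58.1 (lmFit, eBayes with a mean trend) in R 4.3.3, with 6 group means sharing 1 spread and Benjamini-Hochberg adjustment per comparison at 0.05. Within-array pair differences were fitted alike over 16751 pairs. With 2 arrays per group, the number of arrays limits the precision. The platform annotation named 1 gene for 34945 probesets, several for 932 and none for 9160, and 204 of the first were not found in the RefSeq table of GRCm38.p6. The genes, lists and tests were chosen with earlier results of these data known. Named were all probesets of the 7 genes, the most similar probeset of another gene for 2 probesets of each, and up to 2 partner genes per list and comparison with the largest change past the threshold. Counts over probesets above background in both strains were added after the data were seen. The code was tested on simulated data. Alternatives were other scalings, filters, variance priors, thresholds, reference probesets, replicate blocks and leaving out each array.

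Same-numbered arrays of different groups did not deviate together (correlations from -0.227 to 0.0761 over 15 pairs of groups), so that the replicate numbers were not taken as pairs.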

Additional observations from a re-analysis of the deposited data

Results flagged for a closer look

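For 4 probesets every array of 1 strain moved the opposite way to every array of the other between consecutive populations, with each strain above background in at least 1 of them, and these differences between strains were not tested. From pachytene cells to spermatids, *Actl6a* 1456730_x_at changed by 0.111 in B6 and -0.3099 in PWD. In the same step *Lztfl1* 1417170_at changed by 0.239 in B6 and -0.4515 in PWD. The dim *Ranbp2* 1445883_at changed by 0.1656 and -0.3012. From prepachytene to pachytene cells, *Pisd-ps3* 1429452_x_at changed by 0.3078 in B6 and -1.361 in PWD. A further 3 probesets met this from prepachytene to pachytene cells with 1 strain not above background: *Actl6a* 1429883_at with -1.87 in B6 and 0.71 in PWD, *Lztfl1* 1431323_at with -1.27 and 0.22, and *Pisd-ps3* 1453144_at with 0.58 and -3.96.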

How the results depend on the processing

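The 33 strain differences of 2 or more in size kept their sign in the 2 other scalings and without each array, at 0.793 to 1.24 times their value. The genes were chosen for such differences and only large ones were taken, so that a change of sign was hardly possible. Nothing is read from the kept signs. With a limit of 1, probesets higher in PWD numbered 6, 5 and 6 in prepachytene cells, pachytene cells and spermatids, and with a limit of 3, 5 were lower in spermatids. Genes that met the fold rule, lower and higher in PWD, numbered 906 and 807, 444 and 507, and 436 and 475 with a limit of 1, 132 and 51, 68 and 23, and 51 and 33 with a limit of 3, and 70 and 41, 33 and 19, and 32 and 10 with the background level at the highest probeset of the list. Without each array in turn, probesets lower by 2 or more numbered 10 to 12, 8 to 9 and 8, those higher 3, 1 to 2 and 1, and fold-rule genes 329 to 376 and 188 to 272, 150 to 187 and 76 to 106, and 128 to 170 and 109 to 134. Members that changed numbered 18 to 25 and 15 to 17, pairs 11 to 15 and 16 to 18, partner genes 58 to 66 and 55 to 63 between populations, and 10 to 29, 5 to 23 and 8 to 21 between strains.

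Partner genes that differed between strains numbered 8, 6 and 5 when only arrays of the groups compared were fitted, 9, 5 and 8 at an adjusted p under 0.01, 59, 44 and 41 with all probesets counted, and 14 in pachytene cells after another quantile normalization. Those that changed between populations numbered 146 and 110 with all probesets counted. *Pdxdc1* 1452705_at, which fell by 0.40 from prepachytene to pachytene cells, changed by 0.055 after centring. The uncalled first-step change of the *Ranbp2* pair, 0.15 as an average over strains, turned to -0.07 without PWD prepachytene replicate 2 and to -0.11 without PWD pachytene replicate 1. The cause was not tested.

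With the replicate number as a block, 22 and 15 members and 13 and 17 pairs changed, and partner genes numbered 63 and 60 between populations and 24, 15 and 14 between strains. The labels do not say whether same-numbered arrays share an animal or a sort, and the correlations given above cannot show that they do not. The block moved no count by more than 1.5 times.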
